A study of Mus musculus with 12 samples.

Results

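Zfp148, Zfp281, Maz, Patz1 and Vezf1 encode C2H2 zinc finger proteins that bind G-rich DNA, and their transcripts were followed in immature mouse thymocytes from which Zfp148 and Zfp281 had been deleted together. The 5 genes were taken by symbol from 53656 genes listed, and all 5 were among the 13383 genes with enough reads to test. Libraries came from cells sorted from thymus in 4 groups of 3. All mice carried Zfp148 fl/fl and Zfp281 fl/fl, that is, loxP sites in both copies of both genes. In the double knockouts (dKO) a Cd4-Cre transgene, which is active from the stage at which thymocytes first express CD4, deletes the floxed segments in developing T cells. The controls (Ctrl) have the floxed alleles and no Cre, so an effect of Cre itself and the loss of the 2 genes cannot be told apart. The ImCD8 population was gated as CD44low, CD8+CD4-, TCRb+ and CD69+, and the ImCD4 population as CD44low, CD4+CD8-, H2-Kb- and CD69+. The groups are dKO ImCD8, Ctrl ImCD8, dKO ImCD4 and Ctrl ImCD4. The labels give no age. They also do not say whether replicate libraries are separate animals, and p-values therefore reflect library-to-library spread that may be technical in part.

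Groups follow the sample titles. The genotype labels of the 6 ImCD8 libraries are the reverse of their titles, with Cre marked as present in those titled Ctrl and as absent in those titled dKO. The levels of Zfp148 and Zfp281 followed the titles in each of the 12 libraries and contradicted the genotype label in those 6, and each direction given here for ImCD8 rests on the titles.

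Zfp148 (ZBP-89) and Zfp281 (ZBP-99) are closely related and recognise GC-rich promoter elements, where they activate or repress depending on the gene. Maz binds G-rich promoter sites and also acts together with CTCF at chromatin boundaries. Patz1 (MAZR) is known in mouse thymocytes as a repressor of the Cd8 genes and of Zbtb7b, the gene of the CD4-lineage factor ThPOK. Vezf1 is best known from endothelial development and binds runs of G. Cells of the CD4 and CD8 lineages part from a common CD4+CD8+ precursor, and the sorted populations are recent products of that choice.

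Gene counts per library ran from 7315833 to 10943143. Principal component 1 held 66.1% of the variance and parted ImCD8 from ImCD4 libraries, component 2 held 11.9% and parted dKO from Ctrl, and component 3 held 5.31% and set apart replicate 3 of each group. Summed over 9 T-lineage markers, levels were 7620 to 8450 CPM (counts scaled to library size) in dKO ImCD8, 8040 to 8360 CPM in Ctrl ImCD8, 7270 to 7710 CPM in dKO ImCD4 and 7500 to 8130 CPM in Ctrl ImCD4. The 4 CD8-defining markers summed to 4510 to 4790 CPM in dKO ImCD8 and 4610 to 4750 CPM in Ctrl ImCD8, against 141 to 294 CPM in dKO ImCD4 and 121 to 242 CPM in Ctrl ImCD4. The 4 CD4-defining markers summed to 72.3 to 93.7 CPM in dKO ImCD8 and 50.9 to 65.2 CPM in Ctrl ImCD8, against 2140 to 2380 CPM in dKO ImCD4 and 1960 to 2230 CPM in Ctrl ImCD4. Both populations thus carried the markers of their gate. In bulk RNA, fewer cells of a type and less RNA per cell cannot be told apart.

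Zfp148, on chromosome 16 (mm10, 33380836 to 33504363, plus strand, ENSMUSG00000022811.17), kept 359, 683 and 495 counts in the 3 dKO ImCD8 libraries, against 1449, 1214 and 1532 counts in Ctrl ImCD8. Scaled to library size these were 45.6, 62.8 and 56.3 CPM in dKO ImCD8 and 162.4, 171.0 and 162.9 CPM in Ctrl ImCD8. The ImCD4 libraries had 759, 720 and 589 counts in dKO and 1501, 1648 and 1716 counts in Ctrl, or 67.7, 68.9 and 63.0 CPM in dKO and 176.8, 182.1 and 181.9 CPM in Ctrl. Every dKO library lay below every Ctrl library of its population. The dKO libraries held on average 33.2% ± 5.26 of the Ctrl mean in ImCD8 and 36.9% ± 1.74 in ImCD4 (SD, n = 3 each). The log2 fold changes of -1.59 ± 0.09 in ImCD8 and -1.44 ± 0.09 in ImCD4 (SE) differed by -0.15 ± 0.13, with a 95% interval of -0.42 to 0.12, and that difference did not pass the edgeR test (adjusted p = 0.74).

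Zfp281, on chromosome 1 (mm10, 136624901 to 136630053, plus strand, ENSMUSG00000041483.14), kept 117, 145 and 90 counts in dKO ImCD8, against 1141, 829 and 1058 counts in Ctrl ImCD8. These were 14.9, 13.3 and 10.2 CPM in dKO ImCD8 and 127.9, 116.8 and 112.5 CPM in Ctrl ImCD8. The ImCD4 libraries had 206, 169 and 200 counts in dKO and 3879, 3990 and 5300 counts in Ctrl, or 18.4, 16.2 and 21.4 CPM in dKO and 456.8, 440.9 and 561.7 CPM in Ctrl. No dKO library came near a Ctrl library. The share of the Ctrl mean that remained was 10.8% ± 1.98 in dKO ImCD8 and 3.83% ± 0.538 in dKO ImCD4 (SD, n = 3 each). On the log2 scale the changes were -3.22 ± 0.14 in ImCD8 and -4.71 ± 0.13 in ImCD4.

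The loss of Zfp281 was thus smaller in ImCD8 than in ImCD4 by 1.49 ± 0.19 on the log2 scale (SE), a 2.81-fold difference with a 95% interval of 2.12 to 3.72 (edgeR adjusted p = 0.0017). Of the 5 genes, 1 passed this test of the difference, where 0.433% of all genes tested did. The call held in each of the alternative settings that gave a value for it. The levels behind it differ mainly on the Ctrl side, where Zfp281 averaged 119.0 ± 7.94 CPM in ImCD8 and 486.4 ± 65.6 CPM in ImCD4, while dKO averaged 12.8 ± 2.36 CPM in ImCD8 and 18.6 ± 2.62 CPM in ImCD4 (SD, n = 3 each). In the dKO libraries the 2 populations still differed in Zfp281, by -0.54 ± 0.15 on the log2 scale (ImCD8 over ImCD4, adjusted p = 0.00903), and in Zfp148, by -0.27 ± 0.09 (adjusted p = 0.0258). The Zfp281 value was -0.30 (adjusted p = 0.0623) once replicate 3 of each group was left out. The Zfp148 call was lost without dKO ImCD4 replicate 1, dKO ImCD4 replicate 2 or dKO ImCD8 replicate 1, where the adjusted p reached 0.122. The floxed exons are not named in the sources used here, and a residual count is therefore no measure of whole transcript.

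**Figure D1:**
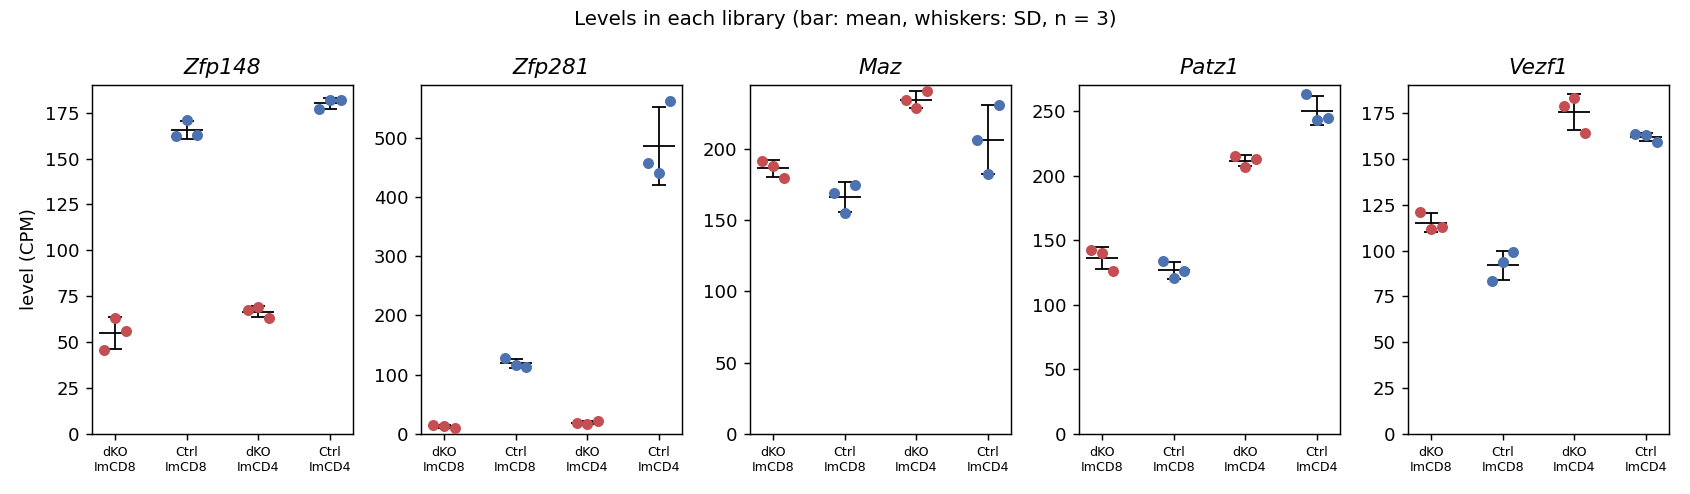
Levels of the 5 genes in each library, in CPM scaled by trimmed means, on a linear axis from 0. Points are libraries, horizontal lines are group means and whiskers are SD (n = 3). Zfp148 and Zfp281 lie lower in all dKO libraries than in the Ctrl libraries of their population, while Maz, Patz1 and Vezf1 differ more between ImCD8 and ImCD4 than between dKO and Ctrl.

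The genes beside the deleted ones were read as well. Around Zfp148, 18 annotated genes lie within 500 kb under a symbol that the data also list. Annotated genes without such a symbol were not counted, here or around Zfp281. Of the 18, 11 could be tested, and 2 passed the threshold in ImCD8 and 2 in ImCD4, Slc12a8 and Fyttd1 in each case. Across all genes 6.14% were called in ImCD8, 2.62% higher and 3.53% lower, and 13.4% in ImCD4, 7.26% higher and 6.16% lower. Slc12a8, a solute carrier gene on the same strand, is the next of these genes downstream and starts 12964 bp past the end of Zfp148 (chromosome 16, 33517328 to 33664135). It had 254, 374 and 267 counts in dKO ImCD8, against 2, 3 and 3 counts in Ctrl ImCD8, and 529, 514 and 481 counts in dKO ImCD4, against 4, 4 and 1 counts in Ctrl ImCD4. Ctrl libraries thus held next to no Slc12a8 reads, and every dKO library held many. Its log2 fold changes were 6.62 ± 0.23 in ImCD8 (adjusted p = 5.16e-11) and 7.15 ± 0.22 in ImCD4 (adjusted p = 4.07e-12). For each residual Zfp148 count, dKO libraries held 0.708, 0.548 and 0.539 Slc12a8 counts in ImCD8 and 0.697, 0.714 and 0.817 in ImCD4. Where in the locus these reads begin was not tested, since the files hold 1 count per gene.

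On the other side of Zfp148 lies 1700007L15Rik, a noncoding gene on the minus strand that starts 108 bp upstream of it. Its counts overlapped between genotypes, with 24, 36 and 38 in dKO ImCD8 and 20, 27 and 22 in Ctrl ImCD8, and 34, 28 and 29 in dKO ImCD4 and 20, 31 and 26 in Ctrl ImCD4. Neither change passed the test, at 0.37 ± 0.27 on the log2 scale in ImCD8 (adjusted p = 0.506) and 0.04 ± 0.26 in ImCD4 (adjusted p = 0.941). Fyttd1, an mRNA export factor gene 471960 bp upstream, fell to 61.7 ± 1.90 CPM in dKO ImCD8, against 84.6 ± 1.62 CPM in Ctrl ImCD8, and to 86.2 ± 7.79 CPM in dKO ImCD4, against 125.2 ± 5.90 CPM in Ctrl ImCD4 (SD, n = 3). Its adjusted p was 0.00156 in ImCD8 and 0.000154 in ImCD4.

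Around Zfp281, 12 annotated genes lie within 500 kb under a symbol that the data also list. Of these, 5 could be tested, and none passed in ImCD8 and 1 passed in ImCD4. That gene was Platr23, a long noncoding gene that is transcribed away from Zfp281 and starts 250 bp upstream of it. It had 3, 2 and 1 counts in dKO ImCD8 and none in Ctrl ImCD8. In ImCD4 it had 38, 25 and 25 counts in dKO and 10, 15 and 10 counts in Ctrl. The groups did not overlap in either population, and the ImCD4 change was 1.12 ± 0.33 on the log2 scale (adjusted p = 0.0375). Leaving out any 1 of the 6 ImCD4 libraries ended that call, with an adjusted p of up to 0.14. Downstream, Platr22 is the nearest of the 12 genes with counts, 66157 bp away, and had at most 4 counts in any library. Since no source used here gives the strand setting of the counting, reads of such divergent pairs cannot be told apart with certainty.

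**Figure D2:**
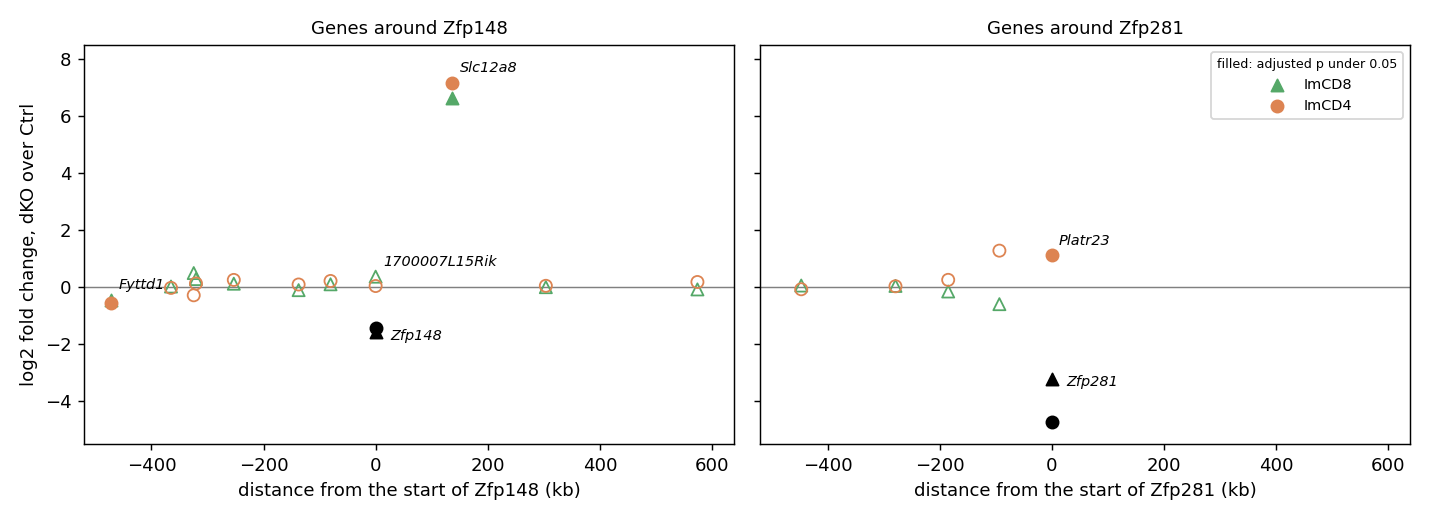
Log2 fold change, dKO over Ctrl, of the tested genes annotated around Zfp148 and Zfp281. The horizontal axis is the distance in kb from the start of the deleted gene to the nearer edge of each gene. Triangles are ImCD8 and circles ImCD4, filled where the edgeR adjusted p was under 0.05, and black marks the deleted genes. Slc12a8 stands at 6.62 in ImCD8 and 7.15 in ImCD4, while most other neighbours lie close to 0. Platr23 in ImCD8 is not drawn because its Ctrl libraries had 0 counts.

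The sequences in front of 3 of these genes are shown because the proteins bind such G-rich stretches and because the Zfp281 window is the whole interval between Zfp281 and Platr23. They are the 250 bases before an annotated RefSeq start (GRCm38.p6, plus strand in each case), at chr1:136624651-136624900 for Zfp281, chr16:33380525-33380774 for Zfp148 and chr11:88068029-88068278 for Vezf1. Capitals mark GGGAGGG or GGGGGGG on either strand.
Zfp281: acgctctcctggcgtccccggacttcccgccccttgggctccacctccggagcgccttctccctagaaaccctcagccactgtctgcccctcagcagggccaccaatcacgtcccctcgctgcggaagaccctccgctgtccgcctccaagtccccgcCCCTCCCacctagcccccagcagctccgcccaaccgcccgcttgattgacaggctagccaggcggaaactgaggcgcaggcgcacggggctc
Zfp148: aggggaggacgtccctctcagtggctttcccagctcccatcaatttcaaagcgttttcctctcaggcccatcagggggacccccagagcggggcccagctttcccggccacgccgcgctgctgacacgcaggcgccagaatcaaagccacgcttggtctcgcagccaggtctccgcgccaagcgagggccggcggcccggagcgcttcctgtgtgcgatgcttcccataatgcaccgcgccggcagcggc
Vezf1: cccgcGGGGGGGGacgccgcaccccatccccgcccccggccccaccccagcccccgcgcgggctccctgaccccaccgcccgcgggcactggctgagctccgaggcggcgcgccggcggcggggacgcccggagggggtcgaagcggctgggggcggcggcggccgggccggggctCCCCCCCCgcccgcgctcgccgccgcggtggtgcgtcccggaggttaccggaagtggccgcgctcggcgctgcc
GGGAGGG, the core of the motif known for Maz and Zfp281, occurred once in front of Zfp281, and on either strand in 19.7% of all 32851 mouse promoter windows of this length. The Vezf1 window held 4 partly overlapping matches to GGGGGGG, a word found in 6.7% of all windows. The first Zfp148 window held neither word, and it overlaps the start of 1700007L15Rik. GC content was 69.6% in the Zfp281 window, 67.2% in this Zfp148 window and 85.6% in the Vezf1 window, against a median of 52.4% over all windows. A second Zfp148 window, further downstream, held 3 matches to GGGAGGG and 5 to GGGGGGG, and both Maz windows held GGGAGGG, 2 times in one and 4 times in the other. Of the Patz1 windows, 1 held a single GGGAGGG and the other none. These matches are descriptions of sequence and were not tied to binding in these cells.

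The question of compensation concerns the relatives whose genes were not targeted. Vezf1, on chromosome 11 (mm10, 88068279 to 88084729, plus strand, ENSMUSG00000018377.10), had 121.4, 111.7 and 113.2 CPM in dKO ImCD8, against 83.4, 93.7 and 99.1 CPM in Ctrl ImCD8. In ImCD4 it had 178.9, 183.4 and 164.5 CPM in dKO, against 163.9, 163.1 and 159.6 CPM in Ctrl. Each dKO library was above each Ctrl library of its population. The rise passed in ImCD8, at 0.33 ± 0.08 on the log2 scale or 1.25-fold with a 95% interval of 1.12 to 1.40 (adjusted p = 0.0149). It did not pass in ImCD4, at 0.11 ± 0.07 or 1.08-fold with an interval of 0.973 to 1.21 (adjusted p = 0.333). The difference between populations, 0.21 ± 0.10 with an interval of -0.01 to 0.43, did not pass either (adjusted p = 0.522). Of the 3 untargeted relatives, Vezf1 alone was called in ImCD8, where 2.62% of all genes were called higher and 21.8% had groups that did not overlap. The ImCD8 call was lost without Ctrl ImCD8 replicate 1 (adjusted p = 0.0915) or dKO ImCD8 replicate 1 (adjusted p = 0.0635), and when only the 6 ImCD8 libraries were fitted (adjusted p = 0.0584).

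Maz, on chromosome 7 (mm10, 127022130 to 127027037, minus strand, ENSMUSG00000030678.7), had 191.7, 187.8 and 179.9 CPM in dKO ImCD8 and 169.5, 154.8 and 174.7 CPM in Ctrl ImCD8, with no overlap. In ImCD4 it had 234.7, 229.0 and 240.8 CPM in dKO and 206.3, 182.5 and 231.2 CPM in Ctrl, and there the groups overlapped. Neither population passed on its own, at 0.16 ± 0.08 in ImCD8 (1.12-fold, interval 0.994 to 1.26, adjusted p = 0.297) and 0.18 ± 0.08 in ImCD4 (1.14-fold, interval 1.01 to 1.28, adjusted p = 0.15). Without Ctrl ImCD4 replicate 3, the highest of its group, the ImCD4 change was 0.28 (adjusted p = 0.0425).

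Patz1, on chromosome 11 (mm10, 3288874 to 3309083, plus strand, ENSMUSG00000020453.17), had 142.1, 140.3 and 126.2 CPM in dKO ImCD8 and 133.5, 120.7 and 125.8 CPM in Ctrl ImCD8, with overlapping groups and a change of 0.10 ± 0.07 on the log2 scale (adjusted p = 0.469). In ImCD4 it had 214.9, 206.6 and 212.6 CPM in dKO, below the 263.0, 243.1 and 244.8 CPM in Ctrl. It fell in ImCD4 by 0.24 ± 0.07 on the log2 scale, to 0.845-fold with an interval of 0.764 to 0.933 (adjusted p = 0.0262). Of the 3 relatives, Patz1 alone was called in ImCD4, where 6.16% of all genes were called lower and 33.8% had groups without overlap. Leaving out any 1 of the 6 ImCD4 libraries ended the call, with adjusted p-values up to 0.122 and changes of -0.26 to -0.21. The difference between populations, 0.35 ± 0.10 with an interval of 0.14 to 0.55, missed the threshold (adjusted p = 0.173).

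Averaging the dKO effect over both populations, with 6 dKO and 6 Ctrl libraries, placed 2 of the 3 untargeted relatives past the threshold. Both targeted genes passed as well. Across all genes 17.7% passed, 9.61% higher and 8.14% lower. The 2 relatives were Vezf1 and Maz. Vezf1 was higher by 0.22 ± 0.05 on the log2 scale, or 1.17-fold with an interval of 1.08 to 1.26 (adjusted p = 0.0078). Maz was higher by 0.17 ± 0.06, or 1.13-fold with an interval of 1.04 to 1.23 (adjusted p = 0.0464). Patz1 was at -0.07 ± 0.05 (adjusted p = 0.361). An exact two-sided permutation test of the libraries within population, whose smallest possible value was 0.005, gave p = 0.005 for Vezf1, 0.01 for Maz and 0.345 for Patz1. The Vezf1 call held in all alternatives that gave an average, with adjusted p-values of 0.00195 to 0.0256. The Maz call was lost in 9 of 12 runs that left out a library, and the adjusted p reached 0.116. It held in those without Ctrl ImCD4 replicate 3, Ctrl ImCD8 replicate 3 or dKO ImCD8 replicate 3. Over all 20 alternatives the Maz call held in 9 and was lost in 11. It held without replicate 3 of each group and with a term for those libraries. Vezf1 reached 125% ± 5.69 of the Ctrl mean in ImCD8 and 108% ± 6.09 in ImCD4, and Maz reached 112% ± 3.61 in ImCD8 and 114% ± 2.86 in ImCD4 (SD, n = 3 each).

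Measures of the libraries moved with genotype too. In ImCD4, gene counts were 9319732 to 10943143 in dKO and 8276742 to 9173424 in Ctrl. The share of tallied reads assigned to no feature was 10.5% to 12.9% in dKO and 13.6% to 16.4% in Ctrl. Where those reads lie is not given. The mitochondrial share of counts was 0.633% to 0.961% in dKO and 1.07% to 1.31% in Ctrl. None of these measures overlapped between genotypes in ImCD4. In ImCD8 the mitochondrial share was 1.27% to 1.70% in dKO and 1.12% to 1.47% in Ctrl. Summed thymic epithelial markers did not overlap in ImCD8, at 107 to 119 CPM in dKO and 93.3 to 98.6 CPM in Ctrl, with no marker at 0. They overlapped in ImCD4, at 26.6 to 37.7 CPM in dKO and 24.9 to 35.9 CPM in Ctrl. Only 2 of these 6 markers had enough reads to test, and 1 of them, Epcam, was called in ImCD8. Epcam had 16.1 ± 5.38 CPM in dKO ImCD8 and 8.93 ± 0.643 CPM in Ctrl ImCD8 (SD, n = 3, adjusted p = 0.0196). Its call was lost without Ctrl ImCD8 replicate 1 or 3 or dKO ImCD8 replicate 1. Summed NK cell markers overlapped in ImCD8, at 30.6 to 68.1 CPM in dKO and 51.3 to 102 CPM in Ctrl, and did not in ImCD4, at 2.67 to 5.17 CPM in dKO and 5.19 to 11.2 CPM in Ctrl, with Ncr1 at 0 in all groups. Of these the perforin gene Prf1 fell in ImCD8, to 17.1 ± 4.32 CPM in dKO, against 45.3 ± 13.6 CPM in Ctrl (SD, n = 3, adjusted p = 0.00792). The B cell receptor gene Cd79b rose in ImCD8, to 25.3 ± 7.59 CPM in dKO, against 10.1 ± 1.79 CPM in Ctrl (adjusted p = 0.0037). The sums of the CD4-defining markers given above also did not overlap in ImCD8, where Gata3 rose to 71.3 ± 7.95 CPM in dKO, against 51.4 ± 5.42 CPM in Ctrl (adjusted p = 0.00632). Summed myeloid and dendritic markers were 76.3 to 92.8 CPM in dKO ImCD8 and 82.5 to 87.7 CPM in Ctrl ImCD8, and 72.6 to 79.5 CPM in dKO ImCD4 and 67.7 to 76.0 CPM in Ctrl ImCD4. Erythroid and platelet markers summed to at most 16.9 CPM in any library. Summed CD4+CD8+ thymocyte markers were 71.1 to 88.1 CPM in dKO ImCD8 and 72.5 to 82.5 CPM in Ctrl ImCD8, and 87.7 to 121 CPM in dKO ImCD4 and 111 to 124 CPM in Ctrl ImCD4. These 3 sums overlapped between genotypes. The part of these measures in the small changes of Vezf1, Maz and Patz1 was not tested.

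**Figure D3:**
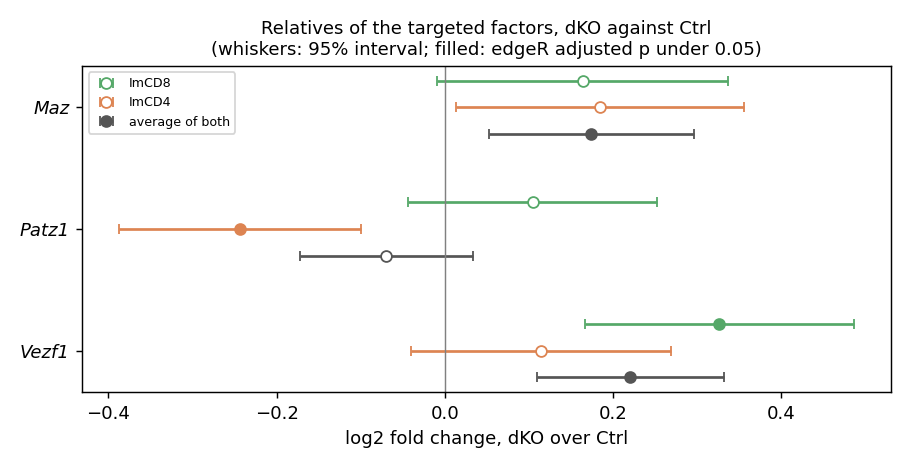
Log2 fold change, dKO over Ctrl, of Maz, Patz1 and Vezf1 in ImCD8, in ImCD4 and averaged over both. Whiskers are 95% intervals derived from the edgeR fit. All 3 genes lie within 0.5 of 0 on the log2 scale, and Patz1 is below 0 in ImCD4 (-0.24) and above 0 in ImCD8 (0.10).

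By lineage, 4 of the 5 genes were lower in Ctrl ImCD8 than in Ctrl ImCD4 and none was higher, where 45.3% of all genes were called, 23.1% higher and 22.1% lower. Zfp281 differed most, at 0.245-fold with an interval of 0.206 to 0.290 (log2 change -2.03 ± 0.12, adjusted p = 2.49e-09). Patz1 followed at 0.506-fold, with 126.6 ± 6.42 CPM in Ctrl ImCD8 and 250.3 ± 11.01 CPM in Ctrl ImCD4 (adjusted p = 1.35e-08). Vezf1 was at 0.567-fold, with 92.0 ± 7.98 CPM in Ctrl ImCD8 and 162.2 ± 2.29 CPM in Ctrl ImCD4 (adjusted p = 2.66e-07). Maz was at 0.805-fold, with 166.3 ± 10.3 CPM in Ctrl ImCD8 and 206.7 ± 24.4 CPM in Ctrl ImCD4 (adjusted p = 0.00509). Zfp148 was close in both lineages, with 165.4 ± 4.84 CPM in Ctrl ImCD8 and 180.2 ± 3.02 CPM in Ctrl ImCD4, at 0.917-fold with an interval of 0.808 to 1.04 (adjusted p = 0.259). Its 3 ImCD8 values nevertheless all lay below its 3 ImCD4 values, as was so for 56.4% of all genes in either direction.

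In dKO cells all 5 genes were lower in ImCD8 than in ImCD4 without overlap and past the threshold, where 43.7% of all genes were called and 51.8% did not overlap. The lineage gap was -0.63 ± 0.07 on the log2 scale for Patz1 in dKO and -0.98 ± 0.07 in Ctrl, and -0.61 ± 0.07 for Vezf1 in dKO and -0.82 ± 0.07 in Ctrl. For Maz it was -0.33 ± 0.08 in dKO and -0.31 ± 0.08 in Ctrl. The tests of these changes in gap are those of the differences above, and none of the 3 passed. Ordered by level, Vezf1 and Maz each ran dKO ImCD4, Ctrl ImCD4, dKO ImCD8 and Ctrl ImCD8 from high to low. The libraries of Vezf1 did not overlap between neighbours in that order, while for Maz the Ctrl ImCD4 libraries overlapped both dKO ImCD4 and dKO ImCD8. Patz1 ran Ctrl ImCD4, dKO ImCD4, dKO ImCD8 and Ctrl ImCD8, and its 2 ImCD8 groups overlapped. Zfp281 and Zfp148 ran Ctrl ImCD4, Ctrl ImCD8, dKO ImCD4 and dKO ImCD8, with no overlap between neighbours.

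**Figure D4:**
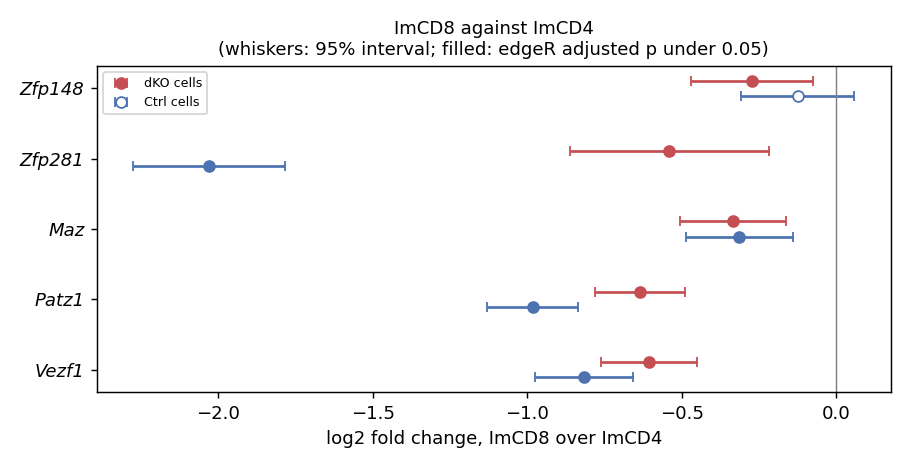
Log2 fold change, ImCD8 over ImCD4, of the 5 genes in dKO and in Ctrl cells, with 95% intervals derived from the edgeR fit. All values lie below 0, and Zfp281 is at -0.54 in dKO and -2.03 in Ctrl.

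Levels can be set between genes once divided by exon length. Per kb of annotated exon, Maz stood at 62.7 ± 2.02 CPM in dKO ImCD8 and 55.9 ± 3.47 CPM in Ctrl ImCD8, the highest of the 5 genes there, and at 78.9 ± 1.98 CPM in dKO ImCD4 and 69.5 ± 8.18 CPM in Ctrl ImCD4. Zfp281 stood at 24.1 ± 1.61 CPM per kb in Ctrl ImCD8 and at 98.5 ± 13.3 CPM per kb in Ctrl ImCD4, where it was the highest. Zfp148 stood at 15.9 ± 0.466 CPM per kb in Ctrl ImCD8 and at 17.4 ± 0.290 in Ctrl ImCD4, the lowest of the 5 in both. In dKO both targeted genes were below the other 3, with Zfp148 at 5.29 ± 0.838 CPM per kb and Zfp281 at 2.59 ± 0.478 in ImCD8, and Zfp148 at 6.41 ± 0.302 and Zfp281 at 3.78 ± 0.530 in ImCD4. The ratio of Zfp281 to Zfp148 per kb, which needs no scaling between libraries, was 0.505 ± 0.160 in dKO ImCD8 and 1.51 ± 0.123 in Ctrl ImCD8, and 0.593 ± 0.112 in dKO ImCD4 and 5.67 ± 0.732 in Ctrl ImCD4 (SD, n = 3 each). By this measure the order of the paralogs was reversed in dKO, where residual counts were divided by the full exon length. Since the floxed exons are not known, the ratio in dKO does not give the order of whole transcripts. Vezf1 averaged 25.1 CPM per kb in dKO ImCD8, with libraries of 18.1 to 21.5 in Ctrl ImCD8, and 38.2 CPM per kb in dKO ImCD4 and 35.3 in Ctrl ImCD4. Patz1 lay close to it, at 23.1 CPM per kb in dKO ImCD8 and 21.5 in Ctrl ImCD8, and 35.8 in dKO ImCD4 and 42.4 in Ctrl ImCD4. Exon lengths are those of the annotation, and the isoforms used in these cells were not resolved.

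Other zinc finger genes whose products bind G-rich or GC-rich DNA, among them the Sp, Klf and Egr families, were also counted. Within each single population they passed the dKO test about as often as all genes did. Of 28 tested, none rose and 2 fell in dKO ImCD8, which is 7.14% against 6.14% of all genes. In dKO ImCD4, 2 rose and 2 fell, which is 14.3% against 13.4% of all genes. For the dKO effect averaged over both populations, 4 rose and 3 fell, which is 25% against 17.7% of all genes. The median log2 change was -0.04 in ImCD8 and -0.07 in ImCD4, against 0.01 and 0.02 over all genes. Zfp219, a transcription factor gene, fell in both populations, to 16.8 ± 5.80 CPM in dKO ImCD8, against 35.2 ± 3.49 CPM in Ctrl ImCD8 (adjusted p = 0.0054), and to 27.8 ± 3.75 CPM in dKO ImCD4, against 61.4 ± 4.16 CPM in Ctrl ImCD4 (adjusted p = 0.00117). Klf2, which promotes thymocyte exit, rose to 70.2 ± 4.57 CPM in dKO ImCD4, against 37.1 ± 5.20 CPM in Ctrl ImCD4 (adjusted p = 0.000612). Klf7 fell in ImCD4, by 0.62 ± 0.14 on the log2 scale (adjusted p = 0.0089). Plagl1 fell in ImCD8 on few reads, with 16 counts over the 3 dKO libraries and 44 over the 3 Ctrl libraries (adjusted p = 0.0344). That call was lost without any 1 of the 6 ImCD8 libraries or without Ctrl ImCD4 replicate 2, and the adjusted p reached 0.148. Sp2 rose in ImCD4 by 0.26 ± 0.08 (adjusted p = 0.0469). Its call was lost without Ctrl ImCD4 replicate 1 or 3, dKO ImCD4 replicate 1 or 2, or Ctrl ImCD8 replicate 1 or 3, and the adjusted p reached 0.161. By lineage, 9 of the 28 were higher and 14 lower in Ctrl ImCD8 than in Ctrl ImCD4, which is 82.1% called against 45.3% of all genes.

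Of 25 genes for known partners of the proteins, most of them from the nucleosome remodelling and deacetylase (NuRD) complex or other chromatin regulators, none rose and 4 fell in dKO ImCD8, which is 16% against 6.14% of all genes. In dKO ImCD4, 6 rose and 6 fell, which is 48% against 13.4% of all genes. Like the other lists, this one was chosen with earlier results of these data known. Its share against that of all genes is therefore a description and no independent test. The median log2 change was -0.04 in ImCD8 and 0.01 in ImCD4. Chd3, a NuRD remodeller, fell most, to 9.27, 7.54 and 4.21 CPM in dKO ImCD8, against 169.4, 163.5 and 194.1 CPM in Ctrl ImCD8. The ImCD4 libraries had 22.9, 17.2 and 28.2 CPM in dKO, against 285.1, 270.7 and 369.7 CPM in Ctrl. The log2 changes were -4.65 ± 0.24 in ImCD8 (adjusted p = 5.18e-07) and -3.76 ± 0.21 in ImCD4 (adjusted p = 5.91e-07). Mta3, another NuRD subunit, fell by 0.97 ± 0.13 in ImCD8 and by 1.04 ± 0.14 in ImCD4 (adjusted p = 0.000235 and 0.000156). In ImCD4, Gatad2b, a NuRD subunit, fell by 0.39 ± 0.08 (adjusted p = 0.00403) while its paralog Gatad2a rose by 0.35 ± 0.07 (adjusted p = 0.00447). The ImCD8 falls of the deacetylase gene Hdac2, by 0.33 ± 0.08 (adjusted p = 0.0165), and of Gatad2b, by 0.29 ± 0.08 (adjusted p = 0.0458), were less firm. Hdac2 was lost without Ctrl ImCD8 replicate 2, dKO ImCD8 replicate 1 or dKO ImCD8 replicate 3 (adjusted p up to 0.0833). Gatad2b was lost in 8 of 12 runs that left out a library (adjusted p up to 0.181), and held without Ctrl ImCD4 replicate 1 or 3, dKO ImCD4 replicate 3 or Ctrl ImCD8 replicate 3.

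Of 7 genes reported elsewhere as direct targets of Zfp148 or Zfp281, only 2 had enough reads to test. Odc1, the rate-limiting enzyme of polyamine synthesis, rose in ImCD4 to 68.5 ± 7.89 CPM in dKO, against 49.7 ± 3.23 CPM in Ctrl (adjusted p = 0.00402). It had 101.7 ± 7.96 CPM in dKO ImCD8 and 93.2 ± 6.56 CPM in Ctrl ImCD8, which did not pass. Of 6 genes tied to Patz1 in the lineage choice (Zbtb7b, Cd8a, Cd8b1, Runx1, Runx3 and Cbfb), none rose and 1 fell in ImCD8, and 1 rose and none fell in ImCD4. A single call among 6 genes is 16.7%, against 6.14% of all genes in ImCD8 and 13.4% in ImCD4. Runx1, a core binding factor gene, fell in ImCD8 by 0.32 ± 0.08 (adjusted p = 0.0336), a call lost without Ctrl ImCD8 replicate 1 or 2 or dKO ImCD8 replicate 2 or 3 (adjusted p up to 0.155). Runx3, a CD8-lineage factor gene, rose in ImCD4 by 0.36 ± 0.11 (adjusted p = 0.036), a call lost without Ctrl ImCD4 replicate 1 or 3 or dKO ImCD4 replicate 1 or 2 (adjusted p up to 0.149). Zbtb7b, named after its values were seen, had 137.7, 121.5 and 235.7 CPM in dKO ImCD4 and 247.3, 236.3 and 387.9 CPM in Ctrl ImCD4, with replicate 3 the highest in both groups. Its change of -0.82 ± 0.25 did not pass (adjusted p = 0.0607). It passed in 6 of 21 alternatives, at -0.84 with a term for the 4 libraries apart (adjusted p = 2.32e-08), at -0.90 without those 4 (adjusted p = 1.36e-06), at -1.16 without dKO ImCD4 replicate 3 (adjusted p = 0.00236), with DESeq2 (adjusted p = 0.0062), with limma-voom (adjusted p = 0.00215) and with the filter of over 5 CPM (adjusted p = 0.0336).

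The genes whose log2 CPM followed each of the 5 most closely over the 12 libraries, among 9830 others with a mean of at least 5 CPM, were found by Pearson's r. Cdk2, Senp8 and Serpinb9 lay nearest to Zfp148 (r = 0.987, 0.976 and 0.976). Rtn3, Acvrl1 and Plxna1 lay nearest to Zfp281 (r = 0.990, 0.988 and 0.983). Ppp2cb, Aplp2 and Ensa lay nearest to Maz (r = 0.961, 0.957 and 0.957). Etnk1, Pwwp2a and Camk1d lay nearest to Patz1 (r = 0.994, 0.987 and 0.981), and Aim1, Nmnat1 and Cnst to Vezf1 (r = 0.990, 0.984 and 0.984). The points share 4 groups and each library's depth, so these values describe a shared pattern over groups.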

How the data were processed

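RNA was sequenced from 12 libraries of sorted immature thymocytes, prepared with the RNeasy Plus Micro and Clontech SMARTer low-input kits, per the labels' protocols. Cutadapt 1.18, STAR 2.6.1, HTSeq and the mm10 build are named per the submitters' processing notes. No source used here names the annotation or the strand setting. The deposited values are raw counts per gene symbol, not normalized. Summary tallies that name no gene stayed out of library sizes and tests, with 10.5% to 16.4% of tallied reads assigned to no feature. Whether such reads lie in introns or between genes cannot be told from the tallies. Replicate numbers follow the order of the records, and the labels pair no libraries across groups. Replicate 3 of each group nevertheless lay apart on component 3. The main model holds no term for this, and what sets these libraries apart was not tested. Library pairs within a group differed by more than counting noise (the smallest chi-square per degree of freedom was 3.84). Such spread cannot tell separate animals from separate preparations of the same cells. Each library was counted as 1 sample.

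Genes were kept by filterByExpr (minimum count 10, minimum total 15) and fitted in 1 quasi-likelihood model with robust settings in edgeR 4.0.16 under R 4.3.3, with TMM factors of 0.946 to 1.04, 4 group means and 8 residual degrees of freedom. Tests were two-sided, with Benjamini-Hochberg adjustment over the 13383 genes and a threshold of 0.05. Any adjusted p printed without a method is from this edgeR test. Levels are TMM-scaled CPM. Each SE was derived from the edgeR fit, as the size of the unshrunken log2 change over the square root of the F statistic. The 95% intervals apply a t quantile to that SE around the reported log2 change. They are approximate, above all for genes with few reads. For single genes, 3 against 3 libraries by exact permutation cannot go below p = 0.1, which the targeted genes reached in each population. On simulated counts for dKO against Ctrl in ImCD4, run on 13206 genes, 75.5% of 106 genes changed 2-fold and 98.9% of 94 changed 4-fold were recovered. The simulation gave every gene the same dispersion and held no difference between populations. It held no changes as small as those of Vezf1, Maz and Patz1 and cannot say how often such changes are found.

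Coordinates and exon lengths come from GENCODE M21 (GRCm38), which held 28534 of the 53656 symbols (53.2%) and all 5 genes. Promoter windows come from RefSeq GRCm38.p6. The 5 genes and all lists were chosen with earlier results of these data known. The text names the 5 genes, at most 4 called genes per list and dKO comparison, neighbours within 500 kb that were called or nearest, and the 3 genes most alike. Alternatives were RLE size factors, library size only, DESeq2 1.42.0, limma-voom 3.58.1 with quality weights, no filter, over 5 CPM in 3 libraries, only the libraries compared, each library left out, and leaving out or modelling the 4 libraries apart on the third component. Of the B cell markers only Cd79b is reported here.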

Additional observations from a re-analysis of the deposited data

Results flagged for a closer look

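The effect of the deletions differed between ImCD8 and ImCD4, by a test of the difference itself, for Zfp281, for the T-lineage marker Ccr7 and for the CD4-lineage marker Cd40lg. For Zfp281 the difference was 1.49 on the log2 scale (adjusted p = 0.0017), with a smaller loss in ImCD8. For the chemokine receptor gene Ccr7 it was 0.85 ± 0.15 (SE, adjusted p = 0.0172), with a fall of 1.08 in ImCD4 and a change of -0.23 in ImCD8 that did not pass (adjusted p = 0.265). For the CD40 ligand gene Cd40lg it was 1.13 ± 0.22 (adjusted p = 0.0265), with a rise of 1.01 in ImCD8 (adjusted p = 0.00421, and 0.0555 with only the libraries compared) and a change of -0.12 in ImCD4 that did not pass (adjusted p = 0.44). Cd40lg averaged 7.48 ± 1.30 CPM in dKO ImCD8 and 3.799 ± 1.10 CPM in Ctrl ImCD8, against 254.1 ± 4.64 CPM in dKO ImCD4 and 276.9 ± 28.5 CPM in Ctrl ImCD4 (SD, n = 3).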

How the results depend on the processing

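The calls of Zfp148 and Zfp281 in dKO held under every alternative run, in both populations. Genes called in ImCD8 numbered 1280 without a filter and 1420 with a term for the 4 libraries apart, against 822, and 473 to 883 with 1 library left out; in ImCD4 that range was 1055 to 1953, against 1797. For the difference they numbered 140 with DESeq2, 233 without a filter, 106 without the 4 libraries and 200 with a term for them, against 58. The Maz difference between populations was 0.0092 with the filter of over 5 CPM, and -0.11 to 0.060 with 1 library left out, against -0.02. The Maz change in ImCD4 was 0.10 to 0.28 and the averaged one 0.13 to 0.22 with 1 library left out. The averaged one was 0.15 with library size only (adjusted p = 0.0893) and 0.16 with the filter of over 5 CPM (adjusted p = 0.0556), past no threshold. Patz1 in ImCD4 ranged from -0.26 to -0.21 and Vezf1 in ImCD8 from 0.26 to 0.38 with 1 library left out, and Vezf1 was at 0.32 with only the libraries compared. Between dKO ImCD8 and dKO ImCD4, Zfp148 was at -0.27 with only the libraries compared (adjusted p = 0.0766) and -0.41 to -0.16 with 1 left out, and Zfp281 at -0.30 without the 4 libraries. 1700007L15Rik in ImCD4 was at -0.020 without the 4 libraries and at -0.070 to 0.20 with 1 library left out. The cause of these changes was not tested. Fitting only the libraries compared gives no difference and no average. Few reads limit Platr23, Platr22, 1700007L15Rik and Plagl1. No paired analysis of single libraries was possible because the labels carry no replicate numbers that groups share. The term for the 4 libraries apart was the only setting that modelled a pattern shared across groups.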
